A study of Homo sapiens with 9 samples.

Results

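LOUP is a long noncoding RNA named for its origin in the upstream regulatory element of PU.1, the transcription factor that SPI1 encodes. LOUP (AC090559.1, ENSG00000255197, listed by RefSeq as SLC39A13-AS1) and 7 protein-coding genes that lie near SPI1 on chromosome 11 (NR1H3, MADD, MYBPC3, SLC39A13, PSMC3, RAPSN and CELF1) were followed through 9 RNA-seq libraries. These 8 members were matched by gene name among 60623 Ensembl genes, and each name had 1 identifier. LOUP was chosen by its FPKM course in these same libraries, with the other genes taken for their position, so its changes are given as a description. The question was whether LOUP moved alone, with SPI1, or with the whole region.

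The libraries came from U937, a monocytic human cell line. The 3 stable lines were single-cell clones made by retroviral transduction with the Tet3G system under puromycin selection. They carried HA-tagged AML1-ETO (clone #4), HA-tagged ETO2-GLIS2 (clone #14) or the empty vector, and each was sequenced at 0, 12 and 48 h of 5 μg/ml doxycycline, which the empty vector line also received. Each condition had 1 library and each fusion protein 1 clone, so no difference between conditions can be set against a replicate, and the clone and its fusion protein cannot be told apart. The values were FPKM, which scale the read count of a gene to its exon length and to the depth of the library. The reads behind them were recovered from the values, and the 95% intervals below are exact intervals of those reads. They cover counting error only, since the reads carry no molecular identifiers and can be copies of the same molecule. In such bulk RNA, fewer cells expressing a gene and less RNA per cell cannot be told apart.

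The library totals on genes ranged from 15136402 to 18443646 reads. RUNX1T1, the gene of the ETO moiety, had 0.512, 22.2 and 28.7 FPKM over time with AML1-ETO and at most 0.0240 FPKM elsewhere, and 115 reads were already present before induction. In the ETO2-GLIS2 line GLIS2 had 2.39, 6.79 and 8.85 FPKM. It was also present elsewhere, with 4.76, 3.64 and 3.72 FPKM in the empty vector line and 5.60, 2.93 and 2.47 FPKM in the AML1-ETO line. Before doxycycline GLIS2 was thus lower in the ETO2-GLIS2 clone, 1.99-fold below the empty vector line and 2.34-fold below the AML1-ETO line. Only after doxycycline was GLIS2 higher in the ETO2-GLIS2 line than in the other lines. Of 8 myeloid markers, 5 were at or above 1 FPKM in every library and CD68 and MPO were under 1 FPKM in every library. Of 7 lymphoid, erythroid and epithelial markers, 5 were at 0 in every library. The summed level of the myeloid markers was 267 to 2070 FPKM. At 48 h with AML1-ETO, 2 of the 5 myeloid markers tested, LYZ and ITGB2, were past 2-fold lower and none was higher, where 11.3% of all genes tested were lower and 17.3% higher. The part of such shifts in the courses below was not tested.

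PU.1 is an ETS factor that sets the myeloid and B-lymphoid programmes in a dose-dependent manner. Its gene is controlled by a distal element upstream of the promoter, where RUNX1 and ETS factors bind, and PU.1 acts on that element itself. LOUP has been described as an RNA of myeloid cells that arises from this element and works with RUNX1 to hold the element and the SPI1 promoter together. AML1-ETO joins the DNA-binding Runt domain of RUNX1 to the corepressor-binding protein ETO, and ETO2-GLIS2 joins ETO2, the product of CBFA2T3, to the zinc fingers of GLIS2.

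In GRCh38.p14, NR1H3 (chr11:47248300-47269033) and MADD (chr11:47269188-47330031) are on the plus strand. They are followed on the minus strand by MYBPC3 (chr11:47331406-47352702), SPI1 (chr11:47354860-47378547) and LOUP (chr11:47381615-47409282). SLC39A13 (chr11:47407276-47416500) is on the plus strand and faces LOUP head to head. PSMC3 (chr11:47418775-47426439), RAPSN (chr11:47437764-47449136) and CELF1 (chr11:47465937-47565539) follow on the minus strand. The end of SPI1 that holds its start lies 3067 bases from LOUP, and 2157 bases separate SPI1 from MYBPC3. The spans of LOUP and SLC39A13 share 2007 bases, but in the GENCODE annotation 0% of the exon bases of either gene lie on exons of the other. This bears on the counts, because the library kit does not mark strand. Of 8 annotated LOUP transcripts, 3 start 17.1 kb upstream of the SPI1 start and 5 start 30.5 to 30.8 kb upstream, beside the start of SLC39A13, and the deposited value adds them.

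LOUP was expressed in all 3 uninduced lines and was nearly lost in the AML1-ETO line between 12 and 48 h, while it was higher after doxycycline in the other two lines. In the empty vector line LOUP had 8.16, 9.31 and 12.3 FPKM at 0, 12 and 48 h, from 389, 413 and 554 reads. In the AML1-ETO line it had 10.0, 7.29 and 0.247 FPKM, from 486, 330 and 11 reads. In the ETO2-GLIS2 line it had 8.66, 12.3 and 14.6 FPKM, from 468, 645 and 699 reads. The AML1-ETO library at 48 h therefore stood below all 8 others, and its interval of 0.123 to 0.441 FPKM did not reach any of theirs. Among those 8, ETO2-GLIS2 at 48 h was highest with an interval (13.5 to 15.7 FPKM) above all others. ETO2-GLIS2 at 12 h and the empty vector at 48 h followed at 12.3 FPKM, with intervals that overlapped each other and lay above that of uninduced AML1-ETO (9.13 to 10.9 FPKM). From there down to AML1-ETO at 12 h, the intervals of neighbours in the order overlapped.

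On the scale log2(FPKM + 0.01), used for all changes below, LOUP changed by -5.29 from 0 to 48 h in the AML1-ETO line (interval -6.35 to -4.49), which is 39.0-fold. It was the 66th lowest change of 12030 genes with a mean FPKM of 1 or more. At 12 h the change was -0.45 (interval -0.66 to -0.25), and from 12 to 48 h it was -4.83 (interval -5.90 to -4.03). RUNX1T1 had by 12 h already reached 22.2 of its 28.7 FPKM. In the empty vector line LOUP changed by 0.19 (interval -0.01 to 0.39) at 12 h and by 0.59 (interval 0.40 to 0.78) at 48 h, and with ETO2-GLIS2 by 0.51 (interval 0.33 to 0.68) and 0.75 (interval 0.58 to 0.92).

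The 48 h change of LOUP in the ETO2-GLIS2 line exceeded that of the empty vector line by 0.16, with an interval of -0.10 to 0.42 that includes 0. At 12 h the difference was 0.32 (interval 0.05 to 0.59). The AML1-ETO change differed from that of the empty vector line by -0.64 (interval -0.94 to -0.35) at 12 h and by -5.87 (interval -6.96 to -5.05) at 48 h. These comparisons share the empty vector libraries. Before induction the lines were close, with LOUP in the AML1-ETO clone 1.23-fold its level in the empty vector line (log2 difference 0.29, interval 0.10 to 0.49) and in the ETO2-GLIS2 clone 1.06-fold (0.09, interval -0.11 to 0.28). Taken against the uninduced empty vector library, the 12 h change in the AML1-ETO line was -0.16.

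SPI1 is not a member of the list but is the gene that LOUP lies beside. SPI1 had 67.0, 76.9 and 97.3 FPKM at 0, 12 and 48 h in the empty vector line, 92.6, 53.1 and 11.9 FPKM in the AML1-ETO line and 88.0, 76.8 and 80.9 FPKM in the ETO2-GLIS2 line. It was thus lower with AML1-ETO at both times, with log2 changes of -0.80 (interval -0.89 to -0.72) at 12 h and -2.96 (interval -3.12 to -2.81) at 48 h. The empty vector line changed by 0.54 at 48 h and the ETO2-GLIS2 line by -0.12 (interval -0.19 to -0.05). The latter has no settled direction, since it was 0.07 in TPM, which brings every library to the same sum, and 0.27 against the uninduced empty vector library.

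Within a library, the ratio of LOUP to SPI1 does not depend on the library total. In the empty vector line LOUP FPKM was 12.2%, 12.1% and 12.6% of SPI1 FPKM at 0, 12 and 48 h. In the AML1-ETO line it was 10.8%, 13.7% and 2.08% (interval of the last 1.03% to 3.76%). In the ETO2-GLIS2 line it was 9.84%, 16.0% and 18.0% (interval of the last 16.6% to 19.6%). The courses of the 2 genes therefore ran in parallel in the empty vector line and apart in both fusion lines, in opposite directions at 48 h.

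In the AML1-ETO line the order of the 2 genes changed with time. At 12 h LOUP had changed less than SPI1, by a log2 difference of 0.35 (interval 0.12 to 0.57), and at 48 h it had changed more, by -2.38 from the reads alone (interval -3.40 to -1.51). With a pseudocount of 1 FPKM in place of 0.01 the 48 h difference was -0.28, since 0.247 FPKM is below that pseudocount. In the ETO2-GLIS2 line LOUP exceeded SPI1 by 0.70 (interval 0.51 to 0.89) at 12 h and by 0.87 (interval 0.69 to 1.06) at 48 h, and in the empty vector line by 0.05 (interval -0.15 to 0.26) at 48 h.

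SLC39A13 encodes the zinc transporter ZIP13, and its start lies inside the LOUP span. RefSeq promoter windows (250 bases before to 50 after a start) were searched on both strands for the RUNX letters TGTGGT and the ETS letters GGAAGT. Such letters are present in 13.1% and 22.8% of 35116 RefSeq promoter windows, and in 4 and 7 of the 18 windows of the 6 members that have them (NR1H3, MADD, MYBPC3, SLC39A13, PSMC3 and CELF1). Windows with RUNX and ETS letters were 1 and 2 of 4 for NR1H3 and 2 and 2 of 5 for MADD. They were 1 and 2 of 5 for CELF1, which had its highest level at 48 h with AML1-ETO, and 0 and 1 of 2 for SLC39A13. MYBPC3 and PSMC3 had neither in 1 window each. A link of the letters to the courses was not tested. A window of SLC39A13 and that of PSMC3 are shown because these are the nearest genes on the side of LOUP away from SPI1 and had different courses. The SLC39A13 window lies wholly inside the LOUP span and holds 2 matches to the ETS letters, 1 on each strand, in capitals. The PSMC3 window holds neither of these exact strings of letters, nor does the other SLC39A13 window (chr11:47407026-47407325). Other forms of the RUNX and ETS motifs were not searched. A match is a description of the letters, not a binding site.
SLC39A13, chr11:47408340-47408639, plus strand, GRCh38.p14: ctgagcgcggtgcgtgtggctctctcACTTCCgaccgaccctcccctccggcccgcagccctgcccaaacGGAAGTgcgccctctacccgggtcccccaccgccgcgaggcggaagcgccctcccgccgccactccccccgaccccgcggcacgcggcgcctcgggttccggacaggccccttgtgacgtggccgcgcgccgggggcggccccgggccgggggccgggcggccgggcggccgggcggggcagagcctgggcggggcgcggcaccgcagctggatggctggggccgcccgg
PSMC3, chr11:47426390-47426689, minus strand, GRCh38.p14: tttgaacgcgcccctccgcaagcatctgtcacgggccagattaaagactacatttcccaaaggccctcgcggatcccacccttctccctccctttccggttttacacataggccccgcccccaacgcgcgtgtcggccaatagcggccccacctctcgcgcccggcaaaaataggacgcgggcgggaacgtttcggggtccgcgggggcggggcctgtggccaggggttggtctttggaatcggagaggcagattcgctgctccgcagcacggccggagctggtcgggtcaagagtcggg

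SLC39A13 had 4.65, 4.53 and 5.72 FPKM at 0, 12 and 48 h in the empty vector line, 5.81, 4.85 and 2.88 FPKM in the AML1-ETO line and 4.78, 4.49 and 5.97 FPKM in the ETO2-GLIS2 line. The AML1-ETO library at 48 h was the lowest of the 9. The log2 change there was -1.01 (interval -1.26 to -0.77), 2.01-fold, which is at the 2-fold threshold, and it was -0.26 (interval -0.47 to -0.05) at 12 h. The call ended when FPKM were rescaled to TPM (-0.86), with a pseudocount of 0.1 (-0.99) or 1 (-0.81) and against the uninduced empty vector library (-0.69), and was kept under median ratio scaling, which aligns libraries on the typical gene (-1.16). Against the empty vector line the change differed by -1.31 (interval -1.64 to -0.99), and within the AML1-ETO line it differed from that of PSMC3 by -1.08 (interval -1.36 to -0.82), a value that no scaling of the library can move. LOUP FPKM was 172%, 150% and 8.55% of SLC39A13 FPKM in the AML1-ETO line, so SLC39A13 retained reads where LOUP did not, with 201 reads against 11 at 48 h.

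PSMC3 encodes an ATPase subunit of the proteasome that all cells need. It had 39.7, 39.8 and 40.6 FPKM in the empty vector line, 35.2, 37.7 and 37.1 FPKM in the AML1-ETO line and 40.2, 45.9 and 36.6 FPKM in the ETO2-GLIS2 line. Its highest level was 1.3-fold its lowest, the narrowest range of the members. The 48 h change was 0.08 (interval -0.04 to 0.19) with AML1-ETO and -0.08 under median ratio scaling, so no direction can be given. Its start lies 17.1 kb from that of LOUP on the side away from SPI1.

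MADD encodes a signalling protein of the Rab GTPase and MAP kinase pathways. It had 15.2, 12.6 and 12.4 FPKM in the empty vector line, 13.6, 8.88 and 8.73 FPKM in the AML1-ETO line and 10.7, 10.8 and 13.3 FPKM in the ETO2-GLIS2 line. With AML1-ETO the log2 change was -0.61 at 12 h (interval -0.72 to -0.51) and -0.63 at 48 h (interval -0.74 to -0.53), so its course was flat over the hours in which LOUP was lost (-0.02 from 12 to 48 h, interval -0.14 to 0.10). The empty vector line also had a change below 0 at 48 h (-0.29), and the ETO2-GLIS2 line had 0.31.

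CELF1 encodes an RNA-binding protein that regulates splicing and mRNA decay. It had 19.1, 19.8 and 20.4 FPKM in the empty vector line, 15.8, 15.9 and 25.7 FPKM in the AML1-ETO line and 12.2, 13.9 and 16.9 FPKM in the ETO2-GLIS2 line. The AML1-ETO library at 48 h was the highest of the 9, opposite to LOUP, with a log2 change of 0.70 (interval 0.63 to 0.77) against 0.10 in the empty vector line and 0.46 in the ETO2-GLIS2 line. With AML1-ETO it was 1.62-fold higher at 48 h than at 12 h, the hours in which LOUP was lost.

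NR1H3 encodes the oxysterol receptor LXR alpha, which controls cholesterol export in macrophages. It had 2.02, 1.11 and 1.05 FPKM in the empty vector line, 2.11, 1.54 and 2.23 FPKM in the AML1-ETO line and 1.96, 2.0 and 1.29 FPKM in the ETO2-GLIS2 line, from 73 to 164 reads. The empty vector line had a log2 change of -0.94 (interval -1.37 to -0.54) at 48 h, short of 2-fold, and of -1.07 under median ratio scaling, which is past it. The AML1-ETO line had 0.08 (interval -0.25 to 0.41). At 48 h NR1H3 was therefore 2.12-fold higher with AML1-ETO than with the empty vector (1.09, interval 0.68 to 1.52), while its AML1-ETO level at 48 h was 1.06-fold that at 0 h. Exons of ACP2 on the other strand cover 4.17% of the NR1H3 exon bases, so a small share of its reads is uncertain.

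MYBPC3, which encodes a cardiac myosin-binding protein, and RAPSN, which encodes a protein that clusters acetylcholine receptors at the muscle synapse, did not reach a mean of 1 FPKM. MYBPC3 had 0.230, 0.371 and 0.532 FPKM in the empty vector line, 0.339, 0.258 and 0.123 FPKM in the AML1-ETO line and 0.254, 0.340 and 0.229 FPKM in the ETO2-GLIS2 line, from 8 to 35 reads. The side of MYBPC3 that holds its start lies next to SPI1. Its change at 48 h was -1.39 with AML1-ETO (interval -2.83 to -0.26) and 1.17 with the empty vector (interval 0.32 to 2.16). RAPSN had 13 reads in all 9 libraries, at most 4 in any library and 0 in 4 libraries. A count of 0 allows up to 3 reads, which was 0.0867 to 0.104 FPKM for RAPSN in those 4 libraries, so no change of it was detectable at this depth. Of 9 other muscle genes, all 9 were under 1 FPKM in every library and 6 were at 0 in every library.

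With the study's threshold of more than 2-fold, and a mean FPKM of 1 or more set here to leave out low genes, 6 of the 8 members could be called in every comparison and MYBPC3 and RAPSN in none. At 48 h against 0 h in the AML1-ETO line, 2 members were lower, LOUP and SLC39A13, where 11.3% of all 12030 genes tested were lower, and no member was higher, where 17.3% were. In the empty vector line no member passed at 48 h, where 8.0% of genes were higher and 2.99% lower. No member passed in the ETO2-GLIS2 line either, where 10.8% were higher and 2.54% lower. At 12 h no member passed in any line, and the shares of all genes were 5.64% higher and 1.88% lower with the empty vector, 6.57% and 2.39% with AML1-ETO, and 3.03% and 1.46% with ETO2-GLIS2. Between lines at 48 h, LOUP alone of the members was past 2-fold lower with AML1-ETO than with the empty vector (11.7% of genes), and NR1H3 alone was past 2-fold higher (11.8%). SLC39A13 fell just short of the lower call at 1.98-fold (-0.98, interval -1.24 to -0.74), and MADD was at -0.51 (interval -0.62 to -0.39). Against ETO2-GLIS2 at 48 h, LOUP and SLC39A13 were lower with AML1-ETO (11.6%).

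Setting LOUP against each gene beside it removes any change that the region or the library shared. At 48 h in the AML1-ETO line, the LOUP change minus that of the gene was -5.42 for NR1H3, -4.71 for MADD, -3.88 for MYBPC3, -4.33 for SLC39A13, -5.42 for PSMC3 and -6.04 for CELF1. Each of these intervals stayed below 0, and the nearest to 0 was that of MYBPC3 at -5.46 to -2.21. RAPSN, with 0 reads before induction, could not be set against LOUP there. Relative to the median of the 5 other members tested, the LOUP change was -5.36 with AML1-ETO, 0.56 with the empty vector and 0.44 with ETO2-GLIS2. At 12 h in the AML1-ETO line the picture was mixed. LOUP was lower relative to PSMC3 (-0.56, interval -0.79 to -0.32) and CELF1 (-0.46, interval -0.68 to -0.24), while its differences from NR1H3, MADD, MYBPC3 and SLC39A13 had intervals that include 0. In the ETO2-GLIS2 line at 48 h LOUP exceeded NR1H3 by 1.35, PSMC3 by 0.89, MADD by 0.44, SLC39A13 by 0.43 and CELF1 by 0.29, and in the empty vector line by 1.54, 0.56, 0.88, 0.29 and 0.49 in the same order. MYBPC3 differed from this, with LOUP minus MYBPC3 at 0.90 (interval -0.14 to 1.96) with ETO2-GLIS2 and -0.62 (interval -1.59 to 0.30) with the empty vector, both intervals including 0.

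A wider stretch was examined in the same way. Of 42 other genes in the files whose start lies within 500 kb of the LOUP start, 20 had a mean FPKM of 1 or more in the AML1-ETO line, and 19 in each of the other two lines. With AML1-ETO, SPI1 and SLC39A13 were past 2-fold lower, the genes on either side of LOUP, and AC090589.3 and ACP2 were past 2-fold higher. These are 2 of 20 genes in each direction, where 11.3% of all genes tested were lower and 17.3% higher, so the counts do not set the stretch apart. The median log2 change of these 20 genes was 0.43, against 0.22 over all genes tested. With the empty vector no gene of the window passed 2-fold and the median was 0.13, and with ETO2-GLIS2 2 genes were higher, none was lower and the median was 0.03.

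ACP2, which encodes lysosomal acid phosphatase, went from 1.26 to 3.58 FPKM with AML1-ETO by 48 h (1.5, interval 1.11 to 1.91), and 0.887 and 1.84 FPKM with ETO2-GLIS2 (1.05, interval 0.58 to 1.55). It changed by 0.73 with the empty vector. The lncRNA AC090589.3 had 2.73 and 6.98 FPKM with AML1-ETO (1.35, interval 0.67 to 2.08), and 3.64 and 6.0 FPKM with the empty vector (0.72, interval 0.07 to 1.39). The other gene higher with ETO2-GLIS2 was a Y_RNA gene (ENSG00000200090), from 5 reads at 0 h and 16 at 48 h. Within 250 kb of LOUP the same 4 genes were called with AML1-ETO, and widening the window to 1000 kb added none there.

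Over the 9 libraries, the genes whose log2 level was most alike to that of LOUP, of 7227 with a mean FPKM of 5 or more, were RAC2, GPAT3, ITGB2, CAPG, FES, NKG7, TNFRSF1B, MPC1, NINJ1 and ULK3, each with a Pearson's r of at least 0.99. RAC2, a small GTPase of blood cells, went from 68.7 to 3.02 FPKM by 48 h with AML1-ETO and from 64.5 to 88.1 FPKM with the empty vector. ITGB2, the shared beta chain of the leukocyte integrins, went from 311 to 20.1 FPKM and from 242 to 408 FPKM. SPI1 had an r of 0.97 and was the 53rd of these genes, and SLC39A13 had 0.90, MYBPC3 0.76, MADD 0.60, PSMC3 0.28, RAPSN -0.34, NR1H3 -0.44 and CELF1 -0.64. The libraries share their lines and the 9 points are not independent. Much of the likeness rested on the AML1-ETO library at 48 h. Without it the r of SPI1 was 0.59 (the 1004th gene), that of SLC39A13 0.55 and that of GPAT3 0.96, and 1 of the 10 genes, GPAT3, was still among the 10 most alike. By the root mean square difference, 3 of the 10 (RAC2, CAPG and NINJ1) were shared.

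The RNA of factors that act on the SPI1 upstream element was measured in the same libraries, for 13 genes of which 12 were tested. At 48 h with AML1-ETO, 3 were past 2-fold lower and 1 higher, where 11.3% and 17.3% of all genes tested were, and the median log2 change was -0.53 against 0.22 over all genes tested. CEBPA, a myeloid factor that cooperates with PU.1, had 98.5 FPKM at 0 h, 37.5 at 12 h and 6.62 at 48 h (-3.89, interval -4.08 to -3.71), and with ETO2-GLIS2 49.2, 27.0 and 24.5 FPKM. JUN had 49.1, 14 and 10.6 FPKM with AML1-ETO (-2.21) but was also past 2-fold lower with the empty vector (-1.21). SPI1 was the third. TCF7L2, a Wnt pathway factor, was higher (1.28), and it was higher with ETO2-GLIS2 as well (1.67). RUNX1 itself had 17.4, 17.8 and 16.8 FPKM with AML1-ETO (-0.05, interval -0.12 to 0.01), a gene whose 5' sequence the fusion transcript carries. RUNX1 changed by 0.44 with the empty vector and by 0.61 with ETO2-GLIS2. At 48 h it was therefore lower with AML1-ETO than with the empty vector (-0.64, interval -0.70 to -0.59). Its partner CBFB had 29.1, 26.2 and 18.6 FPKM with AML1-ETO (-0.65), and changed by 0.42 with the empty vector and 0.30 with ETO2-GLIS2.

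Of 18 textbook PU.1 target genes, 10 were tested at 48 h with AML1-ETO. LYZ (-4.43), ITGB2 (-3.95) and ELANE (-2.96) were past 2-fold lower, CSF2RA (1.21) was among those higher, and the median was 0.32 against 0.22 over all genes tested. ELANE, neutrophil elastase, was also past 2-fold lower with the empty vector (-1.45) and with ETO2-GLIS2 (-2.01), and LYZ, lysozyme, with ETO2-GLIS2 (-1.95). CSF2RA was past 2-fold higher in all 3 lines at 48 h. CSF1R, the receptor for M-CSF, was at 0.187, 0.302 and 0.0128 FPKM with AML1-ETO and was not tested for its low level, and with the empty vector it had 0.525, 1.55 and 1.43 FPKM.

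The pathways of the neighbouring genes gave their own values at 48 h. Of all genes tested, 11.3% were past 2-fold lower and 17.3% higher with AML1-ETO. These shares were 2.99% and 8.0% with the empty vector, and 2.54% and 10.8% with ETO2-GLIS2. Of 18 other proteasome subunits all 18 were tested, none passed 2-fold in any line at 48 h, and the median with AML1-ETO was 0.34. PSMC3 at 0.08 was within their range of -0.41 for PSMD1 to 0.84 for PSMB5. Of 12 other ZIP transporters and metallothioneins, 10 were tested with AML1-ETO, and 1 was past 2-fold lower and 1 higher. SLC39A11 was lower (14.3, 9.53 and 5.86 FPKM, -1.29). The zinc-induced MT2A was higher (3.83), as it was with the empty vector (2.57) and ETO2-GLIS2 (2.77). Of 8 LXR genes 6 were tested, SCD was past 2-fold lower in all 3 lines (-3.41 with AML1-ETO, -3.71 with the empty vector and -3.62 with ETO2-GLIS2), and APOE was higher in all 3. With AML1-ETO 1 of the 6 was lower and 1 higher, and in each of the other lines 2 were lower and 1 higher.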

How the data were processed

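RNA was sequenced from U937 lines at 3 times, and the libraries were made with a TruSeq RNA kit that does not mark strand. Per the submitters' processing notes and the study's methods, reads were aligned to hg38 with HISAT2 (2.0.5), handled with SAMtools (1.7) and counted on genes with HTSeq (0.9.1) at default settings. The authors deposited FPKM for each of 60623 genes. The notes also list DESeq2 (1.22.2), whose role is not given, and the annotation release is not given in the sources used here. A read that overlaps 2 genes is not counted by default, and reads from genes that overlap on opposite strands cannot be told apart. The HTSeq default assumes a stranded library, which this kit does not give, and whether that setting was kept could not be seen from the values.

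Whole reads were recovered from the FPKM values for 23702 of 23889 genes above 0 in at least 3 libraries (99.2%, within 0.002 reads or a relative tolerance of 8e-06), using a whole exon length per gene. ITGB2, LYZ, SCD and CD4 have no recovered reads and hence no interval. The method was tested on simulated data. Analyses used Python (3.11.15), numpy (2.4.6), pandas (2.3.3), scipy (1.17.1) and matplotlib (3.10.9).

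Changes are differences of log2(FPKM + 0.01), a scale that understates changes of low genes. Intervals are exact 95% intervals of reads (Poisson for a level, Clopper-Pearson for a ratio of 2 libraries or 2 genes, conditional odds ratio for a difference of changes). With 1 library per condition no p-value was computed and no test was made. The call required a change of more than 2-fold and a mean FPKM of 1 or more in the pair of libraries. The members, the gene lists and the rules were chosen with earlier results of these data known. The genes named are the members, SPI1, genes that check the labels, genes of the 500 kb window past 2-fold, the 10 genes most alike to LOUP and list genes past 2-fold with AML1-ETO or among the 4 largest changes of a list. CSF1R, RUNX1 and CBFB, and list genes outside that rule, were named after their values were seen. Distances in kb come from a GENCODE annotation on GRCh37, and coordinates and promoter sequences from RefSeq on GRCh38.p14. The ChIP-seq data were not analysed here, and some genes of the lists are not reported here.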

Additional observations from a re-analysis of the deposited data

Results flagged for a closer look

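Results below differed in the sign of the log2 change between 2 lines at both 12 and 48 h against 0 h. Some of these signs are not settled, as given with each gene. None of these differences was tested, since each condition had 1 library. For LOUP the log2 change at 48 h with AML1-ETO minus that with ETO2-GLIS2 was -6.04, and AML1-ETO minus empty vector was -5.87. The 12 h change of LOUP with the empty vector was 0.19, with an interval of -0.01 to 0.39 that includes 0. For SPI1 AML1-ETO minus empty vector was -3.50, and ETO2-GLIS2 minus empty vector was -0.66. The 48 h change of SPI1 with ETO2-GLIS2 has no settled direction (-0.12, and 0.07 in TPM). For MADD, AML1-ETO minus ETO2-GLIS2 was -0.95 and ETO2-GLIS2 minus empty vector was 0.60, where the 12 h change in the ETO2-GLIS2 line was only 0.02 (interval -0.08 to 0.12). For MYBPC3 AML1-ETO minus empty vector was -2.56, from 8 to 35 reads per library.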

How the results depend on the processing

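No change past 2-fold turned its direction under the alternatives run. For LOUP and the window counts 48 values stayed within their counting interval, or within 1.5 times for a count, and 20 moved. Of the remaining values 77 stayed and 42 moved. With ETO2-GLIS2, changes at 48 h short of 2-fold turned direction for NR1H3 (-0.60 to 0.35 after subtracting the empty vector change), MYBPC3 (-0.14 to 0.04 in TPM), PSMC3 (-0.14 to 0.05 in TPM) and SPI1 (-0.12 to 0.07 in TPM), and, with the uninduced empty vector library as reference, for SPI1 (0.27), MADD (0.31 to -0.19) and CELF1 (0.46 to -0.18). Under median ratio scaling those of PSMC3 and NR1H3 with AML1-ETO (both 0.08) went to -0.08 and -0.07, and those of PSMC3 (0.03) and CELF1 (0.10) with the empty vector to -0.10 and -0.04. PSMC3 with AML1-ETO was -0.10 against the uninduced empty vector library. For LOUP with AML1-ETO, a pseudocount of 1 gave -3.14 at 48 h in place of -5.29 and a LOUP minus SPI1 difference of -0.28 in place of -2.32, and the uninduced empty vector library as reference gave -0.16 at 12 h in place of -0.45. For LOUP with ETO2-GLIS2, TPM gave 0.94 at 48 h in place of 0.75, subtracting the empty vector change gave 0.16 at 48 h and 0.32 at 12 h, and the median of the 500 kb window gave 0.73 in place of 0.44 for LOUP against its neighbours. Median ratio scaling shifted 48 h changes by -0.13 with the empty vector, -0.15 with AML1-ETO and -0.13 with ETO2-GLIS2, and TPM by 0.03, 0.15 and 0.19. The count of window genes past 2-fold was 0 with the empty vector, and 8 with no filter, 6 at 1.5-fold, 1 under median ratio scaling and 4 in TPM. It was 4 with AML1-ETO, and 11 with no filter, 1 at a mean FPKM of 5 or more and 13 at 1.5-fold. It was 2 with ETO2-GLIS2, and 1 within 250 kb, 9 with no filter, 1 at a mean FPKM of 5 or more, 5 at 1.5-fold, 1 under median ratio scaling and 5 in TPM. No replicate could be left out, and no paired analysis was possible because each condition has 1 library. The 11 reads of LOUP at 48 h with AML1-ETO limit how precisely its level there is known.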
